A study of Mus musculus with 6 samples.

Results

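The wells described here are the Col1a1-high wells of the mesenchyme gate of mouse kidney. A well was included when the deposited layout labels it mesenchyme, when it held at least 1000 genes and 20000 reads on genes, and when Col1a1, the gene for the main chain of type I collagen, reached 300 CPM (counts scaled to 1e6 reads on genes of the well). The wells were thus selected on measured Col1a1 in all 3 conditions, and these levels are given as a description with no test. In all, 117 of 1106 kept mesenchyme wells met the rule (10.58%), out of 2235 kept wells of the whole series. The other 989 kept mesenchyme wells serve for comparison.

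The series examined renal mesenchymal and endothelial cells by plate-based single-cell RNA sequencing (Smart-seq2, which covers full transcripts and carries no molecular identifiers), after enzymatic digestion and fluorescence-activated sorting. The groups were healthy mice, mice at day 2 of unilateral ureteric obstruction (UUO) and mice at day 10 of UUO, an injury in which a blocked ureter leads to tubular damage and interstitial fibrosis. Each of the 6 plates mixed cells of 1 mouse per condition, and the layout numbers wells from 1 to 4 within a condition. That number was taken as the mouse, since nothing else in the labels names one. Wells of a number also share plates across conditions, as numbers 1 and 4 span 2 plates each and numbers 2 and 3 are 1 plate each. Every p-value therefore rests on wells pooled by this number, and strain, sex, age and the stains behind the gates are not given in the labels. Each condition kept to its own columns of the plates, so condition and plate column cannot be told apart.

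Fibroblasts of the kidney lie between tubules and around arteries and make the fibrillar collagens, proteoglycans and microfibrils of the interstitial matrix. Mural cells, the smooth muscle cells and pericytes that wrap vessels, share the platelet-derived growth factor receptor Pdgfrb with them and are recognised by contractile and signalling genes such as Myh11 and Rgs5. After injury, matrix-producing stromal cells increase matricellular proteins, which are secreted proteins that modulate how cells adhere to the matrix without being its structural fibres.

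The Col1a1-high wells were found in every condition and were most frequent at day 10. They made up 14 of 364 kept mesenchyme wells in healthy mice, or 3.85% with a 95% exact binomial interval from 2.12 to 6.37%. At day 2 they made up 22 of 366 wells, or 6.01% (3.80 to 8.96%). At day 10 they made up 81 of 376 wells, or 21.5% (17.5 to 26.0%). These intervals cover counting error only.

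By mouse 1 to 4, the shares were 2.5, 1.64, 3.28 and 6.56% in healthy mice. At day 2 they were 7.21, 0, 10.9 and 5.51%, where the 0 of 64 wells in mouse 2 allows a share of up to 4.69% by a floor of 3 counts and of up to 5.6% by the exact interval. At day 10 they were 21.4, 6.25, 27.9 and 26.4%. Of the 4 day 10 mice, 3 thus lay above every healthy and day 2 mouse, and mouse 2 at day 10, with 4 wells, lay below mouse 4 of the healthy group and mice 1 and 3 of the day 2 group. A larger number of such wells and a higher level of Col1a1 per cell cannot be told apart in a share set by a threshold.

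**Figure D1:**
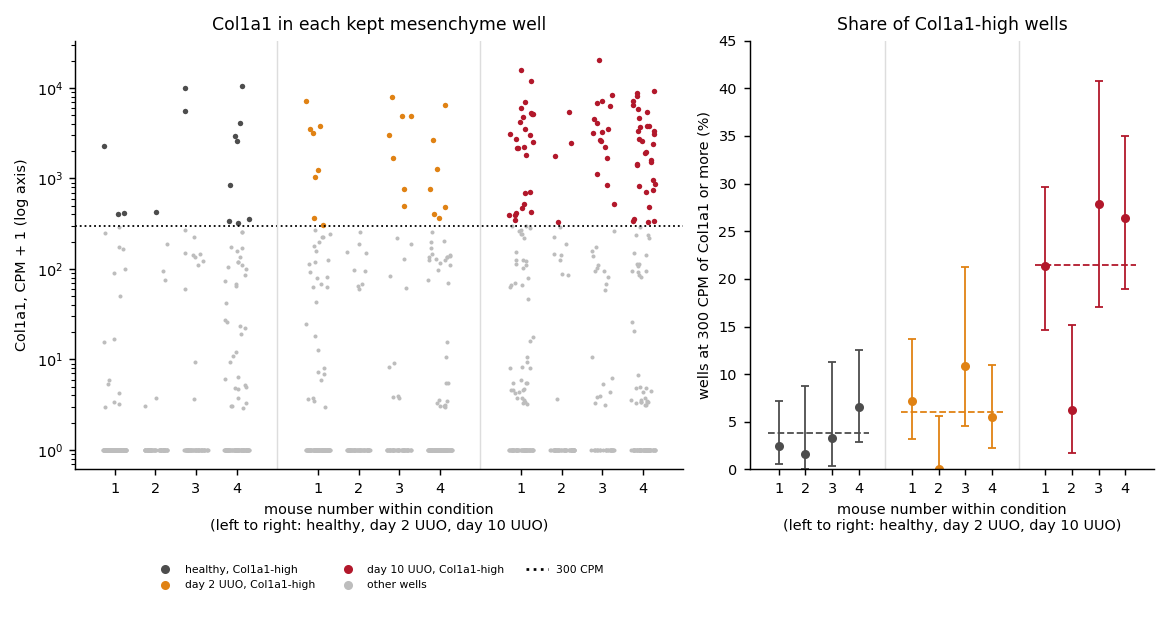
Left, Col1a1 in each kept mesenchyme well (CPM + 1, log axis) by condition and mouse number, with coloured points for wells at or above 300 CPM (dotted line) and grey points for the rest. Right, the share of wells at or above that level per mouse with 95% exact binomial intervals, with a dashed line at the share of the whole condition (3.85, 6.01 and 21.5%); 3 of the 4 day 10 mice lie above every other mouse.

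Within the wells, Col1a1 ran from 318 CPM through a median of 1557 CPM to 10500 CPM in healthy mice. It ran from 303 through 1477 to 7982 CPM at day 2, and from 326 through 2586 to 20290 CPM at day 10. Wells of 1000 CPM or more numbered 7, 14 and 59 in healthy, day 2 and day 10 mice. The threshold did not fall in a gap: the 5 wells just inside it held 303 to 334 CPM and the 5 just outside 287 to 295 CPM. A Col1a1 read was found in 247 of the other 989 mesenchyme wells (25.0%, median depth 357200 reads on genes) and in 64 of 1129 endothelia-gate wells (5.67%, median depth 397500), but 300 CPM was reached in only 6 endothelia-gate wells (0.531%) and a read in 0 of 12 control wells.

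Not every Col1a1-high well carried the other fibroblast markers. Of Dcn (decorin, a collagen-binding proteoglycan), Mfap5 (a microfibril protein), Lum (lumican, a relative of decorin) and Penk (the enkephalin precursor), at least 1 reached 100 CPM beside fewer than 2 of 9 mural markers at that level in 8 of 14 healthy, 8 of 22 day 2 and 35 of 81 day 10 wells. At least 2 mural markers at 100 CPM and none of those 4 were found in 5 healthy, 6 day 2 and 17 day 10 wells. A single mural marker was allowed in the first class, and Rgs5 reached 100 CPM in 3, 0 and 4 of its wells. Both sets were present in 0, 4 and 19 wells, and neither in 1, 4 and 10 wells. The name fibroblast therefore fits some of these wells by their markers, and they are called Col1a1-high wells here.

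The marker classes differed in how far above the threshold their Col1a1 lay. Median Col1a1 of the wells with fibroblast markers only was 3521, 4212 and 3084 CPM in healthy, day 2 and day 10 mice. In the wells with mural markers only it was 402, 629 and 475 CPM. Acta2, the smooth muscle actin, was pooled at 557, 2934 and 1712 CPM in the fibroblast-marker wells and at 25920, 17250 and 13640 CPM in the mural-marker wells. Pdgfrb reached 100 CPM in 12 of 14, 21 of 22 and 79 of 81 wells, and the fibroblast-associated receptor Pdgfra in 7, 12 and 44. With neither marker set, 0 of 1 healthy, 4 of 4 day 2 and 1 of 10 day 10 wells reached that level of Pdgfra.

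Dcn reached 100 CPM in 8, 12 and 41 wells, Mfap5 in 5, 4 and 26, Lum in 4, 2 and 9 and Penk in 4, 1 and 14. In healthy mice all 4 wells with Penk also held Dcn, and all 4 with Lum did. At day 10 only 4 of the 14 Penk wells held Dcn and 1 held Lum, whereas 8 of the 9 Lum wells held Dcn, and all 14 Penk wells held Tnc.

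**Figure D2:**
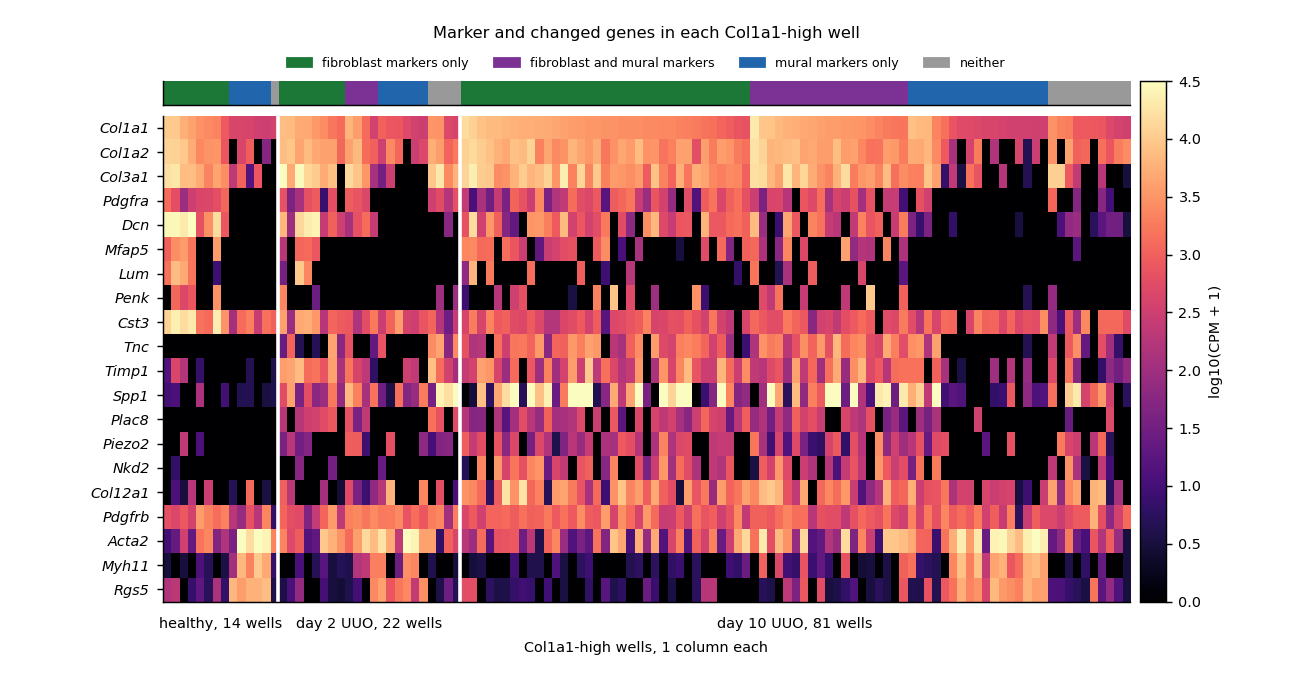
Level of marker and changed genes (rows, log10(CPM + 1)) in each of the 117 Col1a1-high wells (columns), ordered by condition, by marker class (top bar) and by Col1a1. Dcn fills the left of the healthy block, Acta2, Myh11 and Rgs5 mark the mural-marker wells of each block, and Tnc, Timp1 and Spp1 fill most of the day 10 block outside those wells.

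Pooled levels in Col1a1-high wells were set against those in other mesenchyme wells for 1246 genes with a pooled level of at least 100 CPM in every condition. Among the highest, the ratio was 2014 for Mfap5, 1509 for Penk and 937 for Mfap4, another microfibril protein. It was 368 for Col15a1, a basement membrane zone collagen, 319 for Fbln1 (fibulin), 217 for the alarmin Il33, 167 for the Wnt antagonist Frzb, 129 for Dcn and 62.4 for Col3a1 (type III collagen). Since Col1a1 chose the wells, these ratios describe what the chosen wells also held and are not tested.

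Mural and mesangial transcripts were present in every obstructed pool of wells, and those of other cell types were mostly lower. Pools are sums over the Col1a1-high wells of 1 mouse. Summed over 9 mural markers, pools held from 62.6 to 8267 CPM in healthy mice, 1742 to 2934 CPM at day 2 and 1825 to 3102 CPM at day 10, with no marker at 0 in any condition. The 5 mesangial markers summed to 0 to 2526, 1878 to 2559 and 2814 to 4210 CPM. Serpine2, whose levels are given below, made up much of the day 10 sums. The 2 renin-cell markers summed to 1.60 to 677, 65.1 to 857 and 99.8 to 2292 CPM. At least 2 of the 5 mesangial markers reached 100 CPM in 6 of 14 healthy, 12 of 22 day 2 and 50 of 81 day 10 wells. The marker classes above do not use mesangial markers. Summed levels of 6 endothelial markers were 1.60 to 4209, 215 to 999 and 164 to 446 CPM. The 7 leukocyte markers summed to at most 97.7, 142 and 406 CPM, the 8 tubule markers to at most 190, 36.6 and 43.2 CPM, and the 5 podocyte and parietal epithelial markers to at most 770, 413 and 413 CPM. All 5 injured tubule markers were at 0 in healthy pools and summed to at most 78.9 CPM at day 2 and 21.2 CPM at day 10. Of the Schwann cell markers, Sox10 was at 0 throughout and the 4 summed to at most 455, 14.7 and 4.0 CPM, and the adipocyte genes Adipoq and Plin1 were at 0, with the 3 adipocyte markers at no more than 21.8 CPM. The part of these transcripts in the changes below was not tested.

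To compare conditions, reads of the Col1a1-high wells were summed per mouse, and the 9 pools of at least 3 wells (4 at day 10, 3 at day 2 and 2 in healthy mice, mice 1 and 4) entered 1 edgeR quasi-likelihood fit. The healthy pools of mice 2 and 3, of 1 and 2 wells, did not enter it. Their values are given where pools are listed 1 by 1, and means ± SD leave them out. The wells held from 35617 to 546387 reads on genes, with a median of 304723, and the pools in the fit from 961850 to 8963161. Both comparisons with healthy mice use the same 2 healthy pools.

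At day 10, 10 of 11842 genes passed a Benjamini-Hochberg adjusted p of 0.05 against healthy mice, which is 0.0844% of the genes tested. Of them, 9 rose (0.076%) and 1 fell (0.00844%). At day 2, 7 genes passed (0.0591%), all of which rose, while 418 genes were lower at an unadjusted p under 0.05. An unadjusted p under 0.05 in either direction was found for 1266 genes at day 10 and 1384 at day 2, and DESeq2 on the same pools called 913 and 948 genes. Pools in the fit did not overlap between the conditions for 21.4% of genes at day 10 and 19.7% at day 2. Among the genes that rose were those of the matricellular proteins tenascin-C (Tnc) and osteopontin (Spp1), the protease inhibitor Timp1, the secreted peptide Cck, the channel Piezo2, the kinase Sphk1, the Wnt antagonist Nkd2 and Plac8, and the gene that fell was Cst3 (cystatin C).

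Tnc (chr4:63959785-64047015, mm10), a matricellular glycoprotein scarce in most adult tissue and induced in wounds, was at 0 in all 4 healthy pools. It stood at 537, 1446 and 654 CPM in the day 2 pools of mice 1, 3 and 4, and at 874, 1635, 1527 and 1370 CPM in the day 10 pools of mice 1 to 4. Every obstructed pool was thus above every healthy pool, and the day 2 and day 10 pools overlapped. Against the floor of 3 reads over the 2 healthy pools in the fit, Tnc was at least 1817-fold higher at day 10 (edgeR adjusted p = 0.000156) and at least 1182-fold higher at day 2 (adjusted p = 0.000245). Tnc reached 100 CPM in 0 of 14 healthy wells, 7 of 22 day 2 wells and 56 of 81 day 10 wells.

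Spp1 (chr5:104435111-104441053) encodes osteopontin, a phosphoprotein of matrix and urine that binds integrins. Its healthy pools held 2.08, 0, 3.21 and 10.7 CPM, the day 2 pools 1136, 4262 and 19510 CPM, and the day 10 pools 9014, 38590, 19120 and 32730 CPM. The obstructed pools all lay above the healthy pools and spread widely among themselves. The log2 fold change was 11.85 ± 1.45 (SE, adjusted p = 0.00306) at day 10 and 10.22 ± 1.37 (adjusted p = 0.00733) at day 2. At day 2 a single well held 73.3% of the Spp1 reads, and the median well held 570 CPM at day 2 and 391 CPM at day 10, far below the pools. Spp1 reached 100 CPM in 1 of 14 healthy wells, 13 of 22 day 2 wells and 46 of 81 day 10 wells.

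Timp1 (chrX:20870166-20874737) encodes an inhibitor of matrix metalloproteinases. It was at 1.04, 0, 247 and 2.61 CPM in the healthy pools, at 1996, 2556 and 416 CPM at day 2, and at 514, 1863, 1809 and 1515 CPM at day 10. The obstructed pools exceeded all healthy pools, the nearest of which was the 2-well pool of mouse 3. In the fit, which leaves that pool out, the log2 fold change was 9.51 ± 1.12 at day 10 (adjusted p = 0.00266) and 9.72 ± 1.14 at day 2 (adjusted p = 0.00243).

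Cck, the cholecystokinin precursor, was at 0 in all healthy pools, at 90.9, 327 and 390 CPM at day 2 and at 68.5, 178, 120 and 142 CPM at day 10. That is at least 171-fold higher at day 10 (adjusted p = 0.0309, and 0.0591 with the number as a block) and at least 362-fold higher at day 2 (adjusted p = 0.0186). It came from few wells, since 100 CPM was reached in 21 of 81 at day 10 and 4 of 22 at day 2.

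Plac8, a small cysteine-rich protein gene first described in placenta, had no read in any healthy well. It was at 304, 324 and 288 CPM at day 2, close to each other, and at 214, 329, 203 and 127 CPM at day 10. It was at least 294-fold higher at day 10 (adjusted p = 0.00385) and at least 410-fold higher at day 2 (adjusted p = 0.00373).

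Piezo2, a mechanically gated ion channel, was at 0, 0, 165 and 0.651 CPM in healthy pools, at 168, 113 and 133 CPM at day 2, and at 287, 650, 332 and 258 CPM at day 10. The day 10 pools lay above all healthy pools, while the 2-well healthy pool of mouse 3 lay within the day 2 range. It passed at day 10 (adjusted p = 0.00414) and day 2 (adjusted p = 0.0168) in the fit without that pool, against 2 reads in the healthy pools that entered, so no fold is given. Sphk1, which makes the lipid mediator sphingosine 1-phosphate, was at 0, 0, 17.7 and 0.326 CPM in healthy pools, at 70.9, 117 and 94.5 CPM at day 2 and at 85.2, 472, 190 and 96.7 CPM at day 10, and passed at day 10 only (adjusted p = 0.0483, against 1 healthy read, and 0.113 with the number as a block). The day 2 pools also lay above the healthy ones, without passing (adjusted p = 0.118).

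Nkd2, an antagonist of Wnt signalling that binds Dishevelled, was high at day 10 alone. Its pools held 0, 0, 1.60 and 0 CPM in healthy mice, 2.23, 12.1 and 0 CPM at day 2, and 690, 984, 686 and 372 CPM at day 10. No day 10 pool overlapped a pool of another condition. It was at least 918-fold higher at day 10 than in the 2 healthy pools of the fit (adjusted p = 0.0483), and 100 CPM was reached in 0 of 14 healthy, 0 of 22 day 2 and 42 of 81 day 10 wells. Against day 2 its log2 fold change of 7.14 ± 1.28 did not pass (adjusted p = 0.532).

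Cst3 (chr2:148871722-148875512), which encodes the secreted cysteine protease inhibitor cystatin C, fell to 732, 1168, 798 and 692 CPM in the day 10 pools, against 9768, 116, 17910 and 6043 CPM in the healthy pools. The day 2 pools held 1290, 2173 and 788 CPM and did not pass (adjusted p = 0.118). The day 10 pools lay below both healthy pools of the fit (log2 fold change -3.13 ± 0.41, adjusted p = 0.00430), but above the single healthy well of mouse 2. The healthy wells were of more than 1 kind: 5 of 14 wells, from 3 mice, held at least 10000 CPM of both Dcn and Cst3, with Cst3 from 12100 to 22880 CPM, and the other 9 held 116 to 3082 CPM of Cst3. In obstructed mice, Dcn reached 10000 CPM in 3 of 22 day 2 wells, with Cst3 from 3439 to 5441 CPM, and in 1 of 81 day 10 wells, with Cst3 at 1869 CPM. These counts were chosen after the values were seen.

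**Figure D3:**
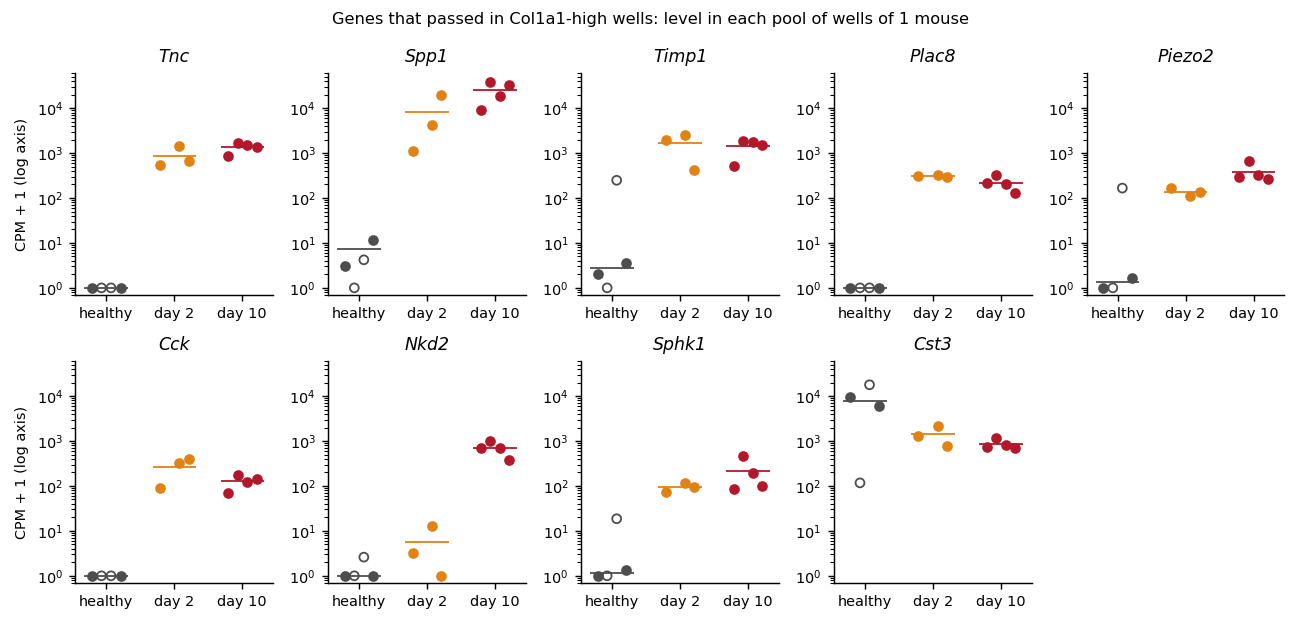
CPM + 1 (log axis) in each pool of Col1a1-high wells for 9 genes that passed at day 10, by condition. Filled circles are pools of at least 3 wells, which entered the fit, open circles are healthy pools of 1 or 2 wells, and lines are means of the filled circles. Nkd2 is high at day 10 alone, and Cst3 runs the other way.

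The calls depend on which healthy wells enter. Without the healthy pool of mouse 1, 1 healthy pool of 8 wells remains. Leaving out the healthy pool of mouse 1 ended 13 named calls over all comparisons, among them day 10 calls of Spp1, Timp1 and Cst3. Leaving out that of mouse 4, which leaves 1 healthy pool of 3 wells, gave 244 calls at day 10 and 264 at day 2. Adding the pools of 1 and 2 wells ended the calls of Timp1, Piezo2, Sphk1 and Cst3 at day 10 (adjusted p from 0.210 to 0.334) and of Timp1 and Piezo2 at day 2 (0.231 to 0.850), and a Col1a1 threshold of 100 CPM left 0 calls by edgeR at either time (911 and 991 genes at an unadjusted p under 0.05). Without the wells that carried at least 2 mural markers, a choice made after seeing the data that leaves 1 healthy pool, 2 genes passed at day 10, Tnc among them (adjusted p = 0.0115), and 4 at day 2, among them Tnc, Plac8 and Igfbp5. Nkd2 kept its day 10 call in 9 of 21 alternative settings, Cck in 7 and Sphk1 in 4, against 20 for Tnc.

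For Tnc, Spp1 and Timp1, the matrix genes that rose at both times, the 250 bases upstream of the most upstream annotated start are shown. These proximal promoters can be searched for motifs of injury-responsive factors (RefSeq, GRCm38.p6, 5′ to 3′ on the gene's strand). The windows are chr4:64047016-64047265 on the minus strand, chr5:104434861-104435110 on the plus strand and chrX:20869916-20870165 on the plus strand. Capitals mark matches on either strand to AP-1 (TGANTCA), STAT (TTCNNNGAA) or RUNX (TGTGGT), which do not overlap here.
Tnc: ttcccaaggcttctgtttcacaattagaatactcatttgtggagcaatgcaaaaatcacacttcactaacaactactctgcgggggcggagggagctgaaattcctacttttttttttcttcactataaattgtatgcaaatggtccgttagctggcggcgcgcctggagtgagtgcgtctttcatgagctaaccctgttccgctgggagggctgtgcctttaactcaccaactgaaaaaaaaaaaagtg
Spp1: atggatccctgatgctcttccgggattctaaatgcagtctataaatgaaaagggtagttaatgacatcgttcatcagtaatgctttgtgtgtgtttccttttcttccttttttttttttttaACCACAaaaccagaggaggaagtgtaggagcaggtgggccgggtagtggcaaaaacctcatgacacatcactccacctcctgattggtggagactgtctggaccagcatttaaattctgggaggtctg
Timp1: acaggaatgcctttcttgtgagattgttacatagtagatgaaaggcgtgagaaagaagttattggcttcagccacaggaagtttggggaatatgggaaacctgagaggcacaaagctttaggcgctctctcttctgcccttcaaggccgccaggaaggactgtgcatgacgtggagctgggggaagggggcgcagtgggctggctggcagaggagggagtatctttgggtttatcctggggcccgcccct
The Spp1 window holds 1 RUNX match, 128 to 123 bases upstream of the start, and the Tnc and Timp1 windows hold no match to any of the 3 motifs. Such matches are common: of 32851 promoter windows, 6.75% hold the AP-1, 7.02% the STAT and 14% the RUNX letters. Of the 9 genes named above, 8 have a window, and beside Spp1 only Plac8 holds a match, with 2 to RUNX. A match is a description of letters and not of binding.

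Lists of genes with a common role were described by their counts and medians beside all genes tested, whose median log2 fold change was 0.65 at day 10 and 0.48 at day 2. Of all 11842 genes, 7531 had a positive log2 fold change at day 10 and 7040 at day 2. With size factors of the relative log expression kind these medians were 0.52 and 0.38, so a list is read against them rather than against 0. The lists were written with earlier results of these data known. In simulated counts the fit missed most genes changed 8-fold (3 of 50 called), so a gene that did not pass is not shown to be unchanged.

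Fibril-forming collagens, the load-bearing fibres of scar, had 0 of 6 tested members that passed at either time, Col1a1 being left out. All 6 had a positive log2 fold change at day 10 (median 1.80) and 5 of 6 at day 2 (median 0.99). Col5a2, which helps to nucleate collagen fibrils, was at 1431, 390, 970 and 606 CPM in day 10 pools and at 26.0, 356, 432 and 174 CPM in healthy pools, a log2 fold change of 3.11 ± 0.90 (adjusted p = 0.308). The healthy pools of the fit, mice 1 and 4, lay below every day 10 pool, as did the single well of mouse 2, and the 2-well pool of mouse 3 overlapped them. Col3a1 averaged 4862 ± 1829 CPM at day 10 and 3418 ± 1877 CPM in healthy mice (SD, n = 4 and 2 pools).

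Of 12 other fibroblast collagens none passed, with medians of 0.65 at day 10 and 0.78 at day 2. Col12a1, a collagen that sits on the surface of fibrils, held 2289, 2040, 2038 and 2686 CPM in day 10 pools, against 374, 3.75, 4.81 and 78.1 CPM in healthy pools. The day 10 pools were close to each other and above every pool of the other conditions, since day 2 held 402, 1202 and 88.0 CPM. The change against healthy mice nevertheless missed the threshold (log2 fold change 3.44 ± 0.92, adjusted p = 0.284). Wells at 100 CPM of Col12a1 numbered 3 of 14 in healthy mice, 8 of 22 at day 2 and 65 of 81 at day 10. Col6a2, a chain of the beaded type VI collagen, went the other way without passing (-1.80 ± 0.53, adjusted p = 0.328).

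Small leucine-rich proteoglycans, which coat collagen fibrils and limit their thickness, had 0 of 9 members that passed, and all 9 had a negative log2 fold change at day 10 (median -2.48) and 8 of 9 at day 2 (median -1.69). Dcn held 6163, 0, 22920 and 10240 CPM in healthy pools, 6064, 4782 and 125 CPM at day 2 and 2375, 330, 1090 and 546 CPM at day 10. Every day 10 pool was below the healthy pools except the single well of mouse 2, which held no Dcn (log2 fold change -2.86 ± 0.93, adjusted p = 0.375). Prelp averaged 367 ± 29.6 CPM at day 10 and 1299 ± 181 CPM in healthy mice (adjusted p = 0.394), and Ogn (osteoglycin) 211 ± 177 and 1212 ± 599 CPM (adjusted p = 0.384). Bgn (biglycan) averaged 6705 ± 2648 CPM at day 10 and 7352 ± 2152 CPM in healthy mice, a log2 fold change of -0.04 ± 0.38 (adjusted p = 0.985). Wells of 10000 CPM or more of Dcn, described with Cst3 above, were 5 of 14 in healthy mice, which bears on this list, and their part in it was not tested.

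Among 12 matricellular genes and fibronectin, Tnc and Spp1 rose at both times and the medians were 1.27 and 0.67. Thbs2 (thrombospondin 2) held at most 0.326 CPM in healthy pools, 11.1, 124 and 2.47 CPM at day 2 and 299, 731, 447 and 432 CPM at day 10, without overlap between conditions. It did not pass against healthy mice (adjusted p = 0.0797 at day 10). Postn (periostin), which is widely used to mark activated fibroblasts, was at 158, 207, 236 and 12.5 CPM at day 10 and at no more than 1.04 CPM in healthy pools (adjusted p = 0.394, against 1 healthy read), with 100 CPM reached in 12 of 81 wells.

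Timp1 was the one of 17 tested matrix proteases and inhibitors that rose, at both times, and the medians were 1.79 and 1.5. Serpine2, an inhibitor of thrombin and plasminogen activators that is also expressed by mesangial cells, averaged 3017 ± 391 CPM at day 10 and 747 ± 768 CPM in healthy mice (log2 fold change 2.14 ± 0.58, adjusted p = 0.284). Plat (tissue plasminogen activator) averaged 1199 ± 546 and 193 ± 171 CPM (adjusted p = 0.371). Mmp3 (stromelysin 1) appeared at day 2, at 274, 332 and 139 CPM, with no read in healthy pools and 29.3 CPM in 1 of 4 day 10 pools. That was at least 334-fold higher at day 2 than in healthy mice, but it missed the threshold (adjusted p = 0.336). Among 14 genes of collagen processing and crosslinking none passed (medians 1.01 and 0.76), and among 12 elastic fibre and microfibril genes none did (medians -0.07 and 0.17).

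Of 13 contractile and myofibroblast genes none passed, and the medians were -0.97 at day 10 and -1.23 at day 2. Acta2, the usual mark of myofibroblasts, held 15430, 37.5, 252 and 9446 CPM in healthy pools, 5050, 8607 and 6998 CPM at day 2 and 6351, 7759, 3024 and 3861 CPM at day 10. The healthy pools spanned the others, and the fit holds the 2 high ones (log2 fold change -1.16 ± 0.35 at day 10, adjusted p = 0.354). Myh11, the smooth muscle myosin, had a log2 fold change of -1.37 ± 0.41 at day 10 (adjusted p = 0.344) and -2.31 ± 0.45 at day 2 (adjusted p = 0.119). Over 21 alternative settings, Acta2 ran from -1.45 to 1.59 at day 10, positive in 3. At day 2 it ran from -1.02 to 2.04, positive in 5. Myh11 ran from -1.66 to 4.17 at day 10, positive in 1. At day 2 it ran from -2.50 to 5.01, positive in 2. In wells with fibroblast markers only, pooled Acta2 was 557, 2934 and 1712 CPM in healthy, day 2 and day 10 mice. Mural markers, to which Myh11 belongs, stood at 62.6 to 8267 CPM summed in healthy pools, and their part in these values was not tested.

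Genes of resting and adventitial fibroblasts had 0 of 17 that passed, with medians of -0.52 at day 10 and 0.64 at day 2. Gsn (gelsolin) averaged 722 ± 256 CPM at day 10 and 3222 ± 1584 CPM in healthy mice (adjusted p = 0.252), while the chemokine Cxcl14 averaged 551 ± 237 and 16.8 ± 23.7 CPM (adjusted p = 0.284). The receptors Pdgfra and Pdgfrb had log2 fold changes of -0.15 ± 0.63 and 0.03 ± 0.41 at day 10 (adjusted p = 0.967 and 0.989). Mfap5, Penk and Lum had log2 fold changes of -0.96 ± 1.26, -0.61 ± 1.69 and -0.43 ± 2.34, whose errors exceed their size.

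Among signalling genes, Nkd2 was the one of 15 tested Wnt pathway members that passed, at day 10. The list had a median of 3.36 at day 10, or 2.57 with genes at 0 in healthy pools set to their lower bound, and of 1.45 or 1.33 at day 2. Wnt2, a secreted Wnt ligand, was at 84.9, 71.2, 135 and 51.0 CPM in day 10 pools and at 0 in all day 2 and healthy pools. It was at least 115-fold higher at day 10 than in healthy mice (adjusted p = 0.284). Of 14 TGF-beta pathway genes none passed (medians 0.40 and -0.23). Inhba, the activin A subunit, averaged 442 ± 311 CPM at day 10 and 2.24 ± 2.71 CPM in healthy mice (SD, n = 4 and 2 pools; log2 fold change 7.96 ± 1.44, adjusted p = 0.0701).

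The remaining lists held no gene that passed at either time. Of 15 chemokines and cytokines the medians were 1.12 and 1.69, or 0.63 and 0.62 with genes at 0 set to their bound. Ccl7, a monocyte-attracting chemokine, held 1.78, 144 and 256 CPM at day 2 and was at 0 in healthy pools, from 2 of 22 wells at 100 CPM. C3, the central complement component, held 74.4, 479 and 118 CPM at day 2, at least 300.7-fold above healthy pools (adjusted p = 0.329), and the 9 complement genes had medians of 0.12 and 0.17. Igfbp5, a binding protein of insulin-like growth factors, averaged 5373 ± 1632 CPM at day 2 and 880 ± 910 CPM in healthy mice (adjusted p = 0.283), and the IGF list of 10 had medians of -0.35 and 0.28. Of 16 stromal transcription factors the medians were 0.01 and 0.43, and of 10 immediate early genes, which tissue digestion can induce, 0.34 and -0.22. Of 11 cell cycle genes the medians were 5.73 and 10.02, or 2.28 and 5.83 with bounds. Those came from few wells: Mki67, a proliferation marker, reached 100 CPM in 0 of 14 healthy, 2 of 22 day 2 and 4 of 81 day 10 wells.

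**Figure D4:**
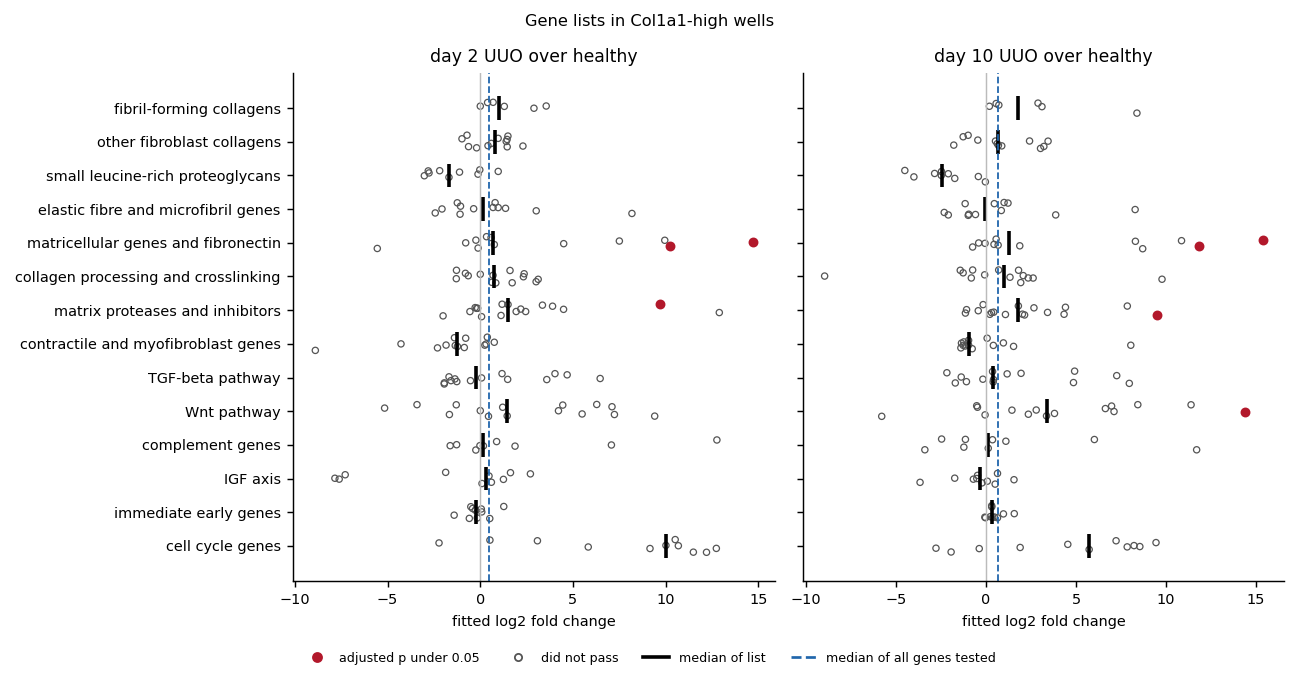
Fitted log2 fold change over healthy mice of each tested gene of 14 lists at day 2 (left) and day 10 (right). Red points passed an adjusted p of 0.05, open points did not, black bars are list medians and the dashed line is the median of all genes tested (0.48 and 0.65); values far from 0 belong to genes at or near 0 in healthy pools and depend on the prior count of the fit.

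Day 10 and day 2 pools were compared in the same fit. Of 11842 genes, 0 passed (0%) with edgeR, 682 had an unadjusted p under 0.05, and DESeq2 called 109. The smallest p belonged to Igfbp5, at 390, 304, 970 and 289 CPM at day 10, against 3546, 5888 and 6686 CPM at day 2. Of the 4 day 2 wells with neither marker set, 3 held 23240 to 28280 CPM, 1 each from mice 1, 3 and 4, while the median day 2 well with fibroblast markers only held 13.5 CPM. The groups did not overlap and the log2 fold change was -3.41 ± 0.59 (adjusted p = 0.527). Without the wells carrying at least 2 mural markers, Igfbp5 was the 1 gene that passed, at a log2 fold change of -4.56 (adjusted p = 0.00511).

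Other named genes had day 10 and day 2 pools that did not overlap without passing, as did 7.88% of all genes tested. Nkd2 and Wnt2, given above, were among them. Thbs1 (thrombospondin 1) had a log2 fold change of 1.99 ± 0.60 and the gelatinase Mmp2 of 2.43 ± 0.79, with day 10 pools of Mmp2 at 822, 610, 613 and 920 CPM and day 2 pools at 34.3, 215 and 168 CPM. Healthy pools of Mmp2 held 1117, 0, 1184 and 93.1 CPM, a range that holds all day 10 and day 2 pools. Runx1, a transcription factor, held 142, 124, 189 and 162 CPM at day 10 and 10.3, 22.2 and 0 CPM at day 2. All 11 cell cycle genes had a negative log2 fold change (median -3.30) and all 10 immediate early genes a positive one (median 0.46), beside a median of 0.06 over all genes tested. Of all 11842 genes, 6163 had a positive value and 5675 a negative one. The cell cycle reads came from few wells, as given above for Mki67, so these genes are not separate observations.

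An interaction term asked whether a change differed from that in the other mesenchyme wells of the same mice. Its model held 18 pools with the mouse as a block. At day 10, 6 of 15426 genes passed (0.0389%), 5 with a higher change in Col1a1-high wells (0.0324%) and 1 with a lower one (0.00648%), and 1084 had an unadjusted p under 0.05. At day 2, 3 genes passed (0.0194%) and 881 had an unadjusted p under 0.05. Tnc and Spp1 passed at both times, and Inhba, Malat1 and Cst3 at day 10. Without the healthy pools of mouse 4 the counts were 263 at day 10 and 253 at day 2, and without those of mouse 1 they were 3 and 3, Tnc and Spp1 among them.

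Tnc was present in other mesenchyme wells before injury and did not follow the Col1a1-high wells there. Other-well pools of mice 1 to 4 held 58.7, 23.8, 95.6 and 70.0 CPM in healthy mice, 10.2, 99.3, 62.8 and 202 CPM at day 2 and 37.3, 24.5, 36.1 and 47.8 CPM at day 10. In healthy mice, Tnc was thus at 0 in Col1a1-high wells and detected in other wells, and at day 10 the Col1a1-high pools lay above the other-well pools. Only 28 of 350 healthy other wells (8.0%) reached 100 CPM of Tnc, against 0 of 14 Col1a1-high wells. A gene held by so few wells can be missed in 14 wells, so the healthy order of the 2 kinds of well is uncertain and was not tested. The adjusted p of the difference was 0.000308 at day 10 and 0.00122 at day 2.

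Spp1 was found in other wells of every condition. Their pools held 962, 123, 2383 and 655 CPM in healthy mice, 523, 2168, 3863 and 3664 CPM at day 2 and 2003, 6907, 4423 and 8964 CPM at day 10. The day 10 and healthy pools of other wells overlapped, and healthy Col1a1-high pools, at no more than 10.7 CPM, lay below all of them. The change was larger in Col1a1-high wells by 9.31 ± 0.70 on the log2 scale at day 10 (adjusted p = 7.73e-06) and by 8.33 ± 0.70 at day 2 (adjusted p = 4.35e-05). Both sizes rest on healthy Col1a1-high pools of 3 and 8 wells, at 2.08 and 10.7 CPM, which can miss a gene held by few wells. Spp1 reached 100 CPM in 7.14% of healthy, 59.1% of day 2 and 56.8% of day 10 Col1a1-high wells, and in 9.14, 51.7 and 13.9% of other wells in the same order.

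Inhba was at 153, 884, 372 and 360 CPM in Col1a1-high pools and at 57.2, 87.7, 45.2 and 49.4 CPM in other-well pools at day 10. In healthy mice it was at no more than 4.16 CPM in Col1a1-high pools and at 84.5, 63.0, 75.8 and 48.5 CPM in other-well pools. The difference was 8.32 ± 1.25 (adjusted p = 0.0181). Its size rests on healthy Col1a1-high pools of 3 and 8 wells. In healthy mice, 100 CPM was reached in 0 of 14 Col1a1-high wells and in 76 of 350 other wells (21.7%).

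Cst3 was steady in other wells, at 964, 837, 1122 and 833 CPM at day 10 and at 1012, 952, 1362 and 917 CPM in healthy mice. The high healthy level lay in the 5 Col1a1-high wells described above, since the other 9 had a median of 1272 CPM, and at day 10 both kinds of well were near the same level (difference -3.08 ± 0.42, adjusted p = 0.00630). The call was lost in 7 of 21 alternative settings, among them the one that adds the healthy pools of 1 and 2 wells (adjusted p = 0.390). Malat1, a nuclear noncoding RNA, was at 19560, 38170, 17990 and 30550 CPM in Col1a1-high pools and at 15810, 19970, 14500 and 20960 CPM in other pools at day 10, and the ranges overlapped. In healthy mice Col1a1-high pools held 10150, 33910, 4568 and 16490 CPM and other pools 20090, 22130, 13880 and 20410 CPM. The single healthy well of mouse 2 exceeded 3 of the 4 day 10 pools of Col1a1-high wells. Without it and the pool of mouse 3, which are not in the fit, the difference of 1.26 ± 0.21 passed narrowly (adjusted p = 0.0428) and kept its call in 6 of 21 alternative settings.

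**Figure D5:**
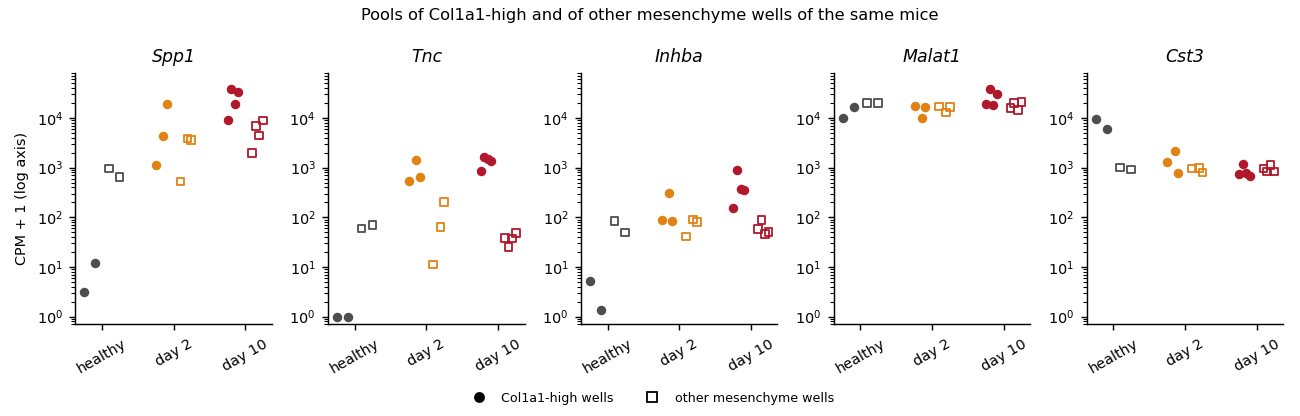
CPM + 1 (log axis) in pools of Col1a1-high wells (filled circles) and of other mesenchyme wells of the same mice (open squares) for 5 genes whose change differed, by condition. Pools of Spp1, Tnc and Inhba lie below those of other wells in healthy mice, where the 2 Col1a1-high pools hold 3 and 8 wells against 117 and 114. They lie above those of other wells at day 10, and the Cst3 pools meet those of other wells at day 10.

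The genes that rose were not spread evenly over the wells. Of Tnc, Timp1, Spp1 and Nkd2, none reached 100 CPM in 11 of 14 healthy wells, and no healthy well held more than 1. At day 2, 1 of 22 wells held none, 5 held 3 and 0 held all 4. At day 10, 15 of 81 wells held none, 18 held 3 and 28 held all 4. Among other mesenchyme wells at day 10, 1 of 295 held all 4 and 203 held none. These 4 genes were chosen among those that passed, so the counts describe their joint presence and are not tested.

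Pairs of genes met in the same wells to different degrees. At day 10, 41 of the 42 Nkd2 wells also held Tnc, out of 56 Tnc wells. Timp1 joined Tnc in 47 wells. In wells with fibroblast markers only, pooled Tnc was 0, 752 and 1346 CPM in healthy, day 2 and day 10 mice. It was 0, 78.7 and 606 CPM in wells with mural markers only, where the median day 10 well held none. It was highest at day 10 in wells with both marker sets, at 2030 CPM, where all 19 wells reached 100 CPM. Pooled Nkd2 was 806 CPM in the day 10 wells with fibroblast markers only, 578 CPM with both sets and 194 CPM with mural markers only. Over these classes Spp1 followed the order of Nkd2 at day 10, at 33240, 23640 and 5728 CPM. The day 10 wells with neither set, at 450 CPM of Nkd2 and 3912 CPM of Spp1, did not keep that order. At day 2 Tnc and Spp1 were highest in the 4 wells with neither marker set, at 3003 CPM of Tnc and 43600 CPM of Spp1.

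Pooled Cst3 in wells with fibroblast markers only was 12530, 2411 and 670 CPM in healthy, day 2 and day 10 mice, and 1022, 927 and 867 CPM in wells with mural markers only. Dcn in the fibroblast-marker wells was 17430, 8663 and 2175 CPM. These wells were classed by Dcn itself, so the Dcn values only describe the class.

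The number of genes per well and the content of RNA were compared between conditions over the medians of each pool in the fit. Median genes per well averaged 3228 in healthy mice, 4022 at day 2 and 3905 at day 10, and reads on genes per spike-in read averaged 360, 361 and 458. None of 6 comparisons passed a 2-sided exact permutation test (lowest exact p = 0.200, adjusted p = 0.600), a design in which the smallest possible p is 0.0571 for day 10 against day 2, 0.133 for day 10 against healthy mice and 0.200 for day 2 against healthy mice. The labels name no reporter, but the count tables hold an eGFP entry, which had a read in 13 of 14 healthy, 22 of 22 day 2 and 79 of 81 day 10 wells.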

How the data were processed

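Kidney cells on 6 plates were profiled by Smart-seq2. A plate holds cells of 3 mice, 1 from each condition, per the labels. The authors deposited raw read counts per gene and well, not normalized, raw counts per spike-in RNA, and a layout that names each well. STAR and mm10 are named in the submitters' processing notes, without version, and the counter, annotation and strandedness are not given in the sources used here, so overlapping or antisense genes and near-identical copies were taken as counted. The 24490 entries were added by symbol (771 share 279 symbols), leaving 23998. Plates held 116961847 to 142889978 reads on genes in sorted wells. Reads carry no molecular identifiers, so exact binomial (Clopper-Pearson) intervals and floors (3 counts) cover counting error only.

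Of 1140 sorted mesenchyme wells, 1106 held at least 1000 genes and 20000 reads. No doublet caller was run. Wells with Col1a1 of at least 300 CPM were summed per condition and layout number, and sums of at least 3 wells entered edgeR 4.0.16 (R 4.3.3; filterByExpr, TMM, quasi-likelihood F tests, Benjamini-Hochberg threshold 0.05) in 1 fit of 9 pools with 6 residual degrees of freedom. The standard error is the log2 fold change divided by the square root of F. CPM are per reads on genes of the pool, and means ± SD cover the pools in the fit. This fit has no block. Same-numbered pools share plates, which would pair them, and their deviations from the group means were nearly uncorrelated (r from -0.0171 to 0.0321), so a fit with the number as a block is given where it changes a call. The difference from other mesenchyme wells was an interaction over 18 pools, with the mouse as a block because both kinds of well come from the same mice. Alternatives were DESeq2 1.42.0, limma 3.58.1 on log2(mean CPM + 1), other scaling, filters, thresholds and pools. On counts simulated for the real pools, the day 10 fit against healthy mice called 0 of 50 genes changed 2-fold and 1 of 50 changed 4-fold. It called 3 of 50 changed 8-fold and 20 of 50 changed 64-fold, beside 2 unchanged genes. The day 10 difference fit called 0 of 50 at 2-, 4- and 8-fold and 9 of 50 at 64-fold, beside 1 unchanged gene. Depth measures were compared with exact permutation tests in scipy 1.17.1.

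Genes named are those past the threshold with non-overlapping pools and a mean log2 CPM of at least 4, up to 10 per direction (5 for the difference), the 2 to 4 of smallest p in each list, Col1a1, Dcn, Mfap5, Lum, Penk, Acta2, Pdgfra, Pdgfrb, Spp1, Timp1, Tnc and Postn, and the 20 highest over other wells. Members, lists and markers were chosen with earlier results of these data known. Promoter windows are from RefSeq on GRCm38.p6. A few genes it selects are not reported here.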

Additional observations from a re-analysis of the deposited data

Results flagged for a closer look

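The change from healthy mice differed between Col1a1-high wells and other mesenchyme wells of the same mice, by edgeR's quasi-likelihood test of the difference, for 6 genes at day 10 and 3 at day 2, of which 5 and 2 are given. At day 10 the difference on the log2 scale was 9.31 for Spp1 (adjusted p = 7.73e-06), 8.32 for Inhba (adjusted p = 0.0181), 1.26 for Malat1 (adjusted p = 0.0428) and -3.08 for Cst3 (adjusted p = 0.00630). The fitted difference of 18.44 for Tnc rests on 0 reads in the healthy Col1a1-high pools and depends on the prior count of the fit. At day 2 the difference was 8.33 for Spp1 (adjusted p = 4.35e-05), and the fitted value of 17.25 for Tnc has the same limit. The sizes for Spp1 and Inhba rest on healthy Col1a1-high pools of 3 and 8 wells, with at most 10.7 CPM of Spp1 and 4.16 CPM of Inhba.

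Of 108 groups of 4 tested with Dixon's test, which are the day 10 pools of the named genes and the shares in each condition, 17 genes had 1 day 10 pool far from the other 3. Chance flags about 1 in 20 groups of normally distributed values, which CPM of such pools need not be. That rate also does not hold for a gene read in only 1 of the 4 pools, since its gap is then the whole range at any level. The far pool held the high value of Igfbp5 (970 CPM), C3 (366.5 CPM), P4ha1 (254 CPM), C7 (109 CPM), Has1 (91.3 CPM) and Mmp3 (29.3 CPM), and the low value of Gsn (340 CPM) and Fosb (93.4 CPM). It also held the high value of Ly6c1 (67.5 CPM), Cenpf (21.3 CPM), Ccl11 (9.82 CPM), Plk1 (2.71 CPM), Pcolce2 (0.558 CPM), Clec3b (0.446 CPM), Ccl7 (0.387 CPM), Meox2 (0.335 CPM) and Ebf2 (0.112 CPM), of which all but Ly6c1 and Cenpf were at 0 in the other 3 pools.

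Col1a1 at 300 CPM or more was found in 6 of 1129 wells of the endothelia gate, which belong to no comparison above.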

How the results depend on the processing

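The main fits called 10 genes at day 10 and 7 at day 2 against healthy mice, 0 at day 10 against day 2, and 6 and 3 for the differences from other wells at day 10 and day 2, in which order counts follow here. DESeq2 gave 913, 948, 109, 752 and 728 and no filter on low counts 132, 121, 31, 21 and 19. Pools per plate gave 22, 16, 0, 16 and 13. Equal weight to each well with limma gave 24 and 11 against healthy mice. The differences without the mouse as a block gave 130 and 131. At least 5 wells per pool gave 6 and 3 against healthy mice (at day 2 Plac8 and Tnc among them). A Col1a1 threshold of 100 CPM gave 0, 0, 0, 1 (Cst3) and 0 with edgeR, with 911 and 991 genes at an unadjusted p under 0.05 against healthy mice and 555 for the day 2 difference. A threshold of 1000 CPM gave 4 at day 2 (among them Plac8, Tnc and Tubb6) and 2 for the day 10 difference (Spp1 and Tubb6). Without wells of 100 CPM of Pecam1, Ptprc or Myh11, 3 passed at day 2 (Plac8 and Tnc among them) and 2 for the day 10 difference (Spp1 and Tnc). Without wells of 2 or more mural markers, 2 passed at day 10 (Tnc among them), 4 at day 2 (among them Igfbp5, Plac8 and Tnc), 1 between them (Igfbp5) and 2 for the day 10 difference (Spp1 and Tnc). The minimum of 5 wells, the 1000 CPM threshold and both choices that leave out marked wells keep 1 healthy pool, that of mouse 4, which is then assumed to vary like the other groups. The cause of these shifts was not tested. Leaving out 1 pool at a time gave 6 to 244, 3 to 264, 0 to 0, 3 to 263 and 3 to 253 calls, the lowest day 10 count without healthy mouse 1 and the highest without healthy mouse 4. Without day 2 mouse 3 the day 2 counts were 11 and 8, and without day 10 mouse 1 the differences were 10 and 5.

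With the replicate block on number, 10, 9 and 0 genes passed, sharing 8, 7 and 0 with the main fit, and Cck and Sphk1 lost their day 10 calls (adjusted p = 0.0591 and 0.113). It ended no other of the calls against healthy mice. Shares of Col1a1-high wells at 100 CPM were 10.2, 14.8 and 31.1% in healthy, day 2 and day 10 mice, and at 1000 CPM 1.92, 3.83 and 15.7%. Over the named calls and settings, 390 kept their call and 156 lost it, and 0 reversed.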

Other observations

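Several genes that stood far above other mesenchyme wells in every condition were at different pooled levels over the conditions. None of those given here was among the genes that passed in the fit. The pooled levels hold all Col1a1-high wells of a condition, and in healthy mice Mfap4 and Serpinf1 reached 100 CPM in 5 of 14 wells each. Mfap4, a microfibril protein, stood in Col1a1-high wells at 3142 CPM in healthy mice, 381 CPM at day 2 and 348 CPM at day 10. Dpep1, a membrane dipeptidase, was in the same order at 2967, 568 and 121 CPM, Fbln1 at 2001, 1274 and 427 CPM and Serpinf1, which encodes pigment epithelium-derived factor, at 1188, 249 and 166 CPM. Col15a1 ran the other way, at 119, 196 and 448 CPM, and Frzb at 282, 491 and 591 CPM. In other mesenchyme wells each of these 6 genes was at no more than 19.1 CPM in any condition.

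Genes led by day 10 over the other conditions came partly from many and partly from few wells. Fbn2, a microfibril protein most abundant in development, was pooled at 189 CPM at day 10 and 1.33 CPM in the other conditions, with 26 of 81 wells from 4 mice at 100 CPM. Ifi203, an interferon-inducible gene, was at 110 and 2.67 CPM, with 22 wells from 4 mice. The podocyte gene Podxl was at 147 CPM at day 10, from 8 wells of 3 mice. Of the genes that led in healthy wells, Pfn4, Fgf13, Il21r and Tmprss5 each had 94.6 to 100% of their reads in 1 well.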
